A study of Arabidopsis thaliana with 4 samples.

Results

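Copia retrotransposon genes make up 474 of the 30361 gene models on the array. A model was taken as a member where its deposited description names a transposon or retroelement and the word copia, without gypsy or athila. The 6 ONSEN copies, heat-responsive Copia genes, were left out. No expression value entered the rule. Copia elements move through an RNA copy. The element is transcribed from its long terminal repeat, and the transcript encodes a gag protein that packages the RNA and a pol polyprotein with protease, integrase, reverse transcriptase and RNase H. The integrated copies are normally kept silent in Arabidopsis by DNA methylation, histone methylation and small RNAs, and most copies have decayed reading frames.

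The study compared Arabidopsis thaliana seedlings of the accession Landsberg erecta (Ler) that were wild type with Ler seedlings of the T3 generation carrying an artificial microRNA against TEK (TEKi). TEK is an AT-hook DNA-binding protein that the series title calls a killer of transposable elements, and the labels give TEKi plants as late flowering. Seedlings of both groups grew on MS plates and were collected whole on day 7, with 2 separate cultures of each genotype and 1 single-colour array per culture. The sources used here do not name the promoter that drives the artificial microRNA. Each value is a deposited intensity on a linear scale. Because each sample was RNA of whole seedlings, a change in the number of cells that transcribe an element cannot be told apart from a change in RNA per cell.

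The arrays were deposited in 2 forms that disagree on their labels. Wild type 1 and TEKi 2 are the same arrays in both. The array whose file carries the name TEKi 1, here called filed TEKi 1, is wild type 2 in the series value table, and the one whose file carries the name wild type 2, here called filed wild type 2, is TEKi 1 there. Both sets of labels were therefore used in full, and no array was moved because of its values. The 2 comparisons share all 4 arrays and are not independent of each other. The wild-type arrays of the value table are those filed as replicate 1, and its TEKi arrays are those filed as replicate 2. A difference between its groups cannot be told apart from a difference between the replicates as filed. Likewise, the arrays filed as wild type are numbered 1 in the value table, and those filed as TEKi are numbered 2. TEK itself did not settle the labels. Its intensity was 13406 on wild type 1, 14118 on filed wild type 2, 9864 on filed TEKi 1 and 13770 on TEKi 2. The TEKi minus wild type difference in log2 intensity was -0.24 with the array-file labels and 0.28 with the value-table labels, and neither passed the test. Genes of green seedling tissue were bright on every array, as the labelled tissue would give, but 3 of the 4 looked at reached the highest deposited intensity on some arrays, so their amounts cannot be compared. The fourth, RCA, which encodes Rubisco activase, lay between 49079.9 and 61052.

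The 474 models lie on all 5 chromosomes, with 94, 99, 115, 79 and 87 on chromosomes 1 to 5. Coordinates here follow genome release 6 as the deposited annotation gives them, which describes the reference genome and not Ler. Lengths ran from 209 to 14591 bases with a median of 2825. Models over 3000 bases, long enough for a whole polyprotein, numbered 226, and 161 were under 1500 bases. The gene table used for names lists all 474 as pseudogenes. A single member, RE2 (AT4G02960), has a symbol of its own, and its annotation says that Ler holds more copies of the element than Columbia does. Most members sat among ordinary genes. Of the 40 gene models nearest to a member, 20 on each side, a median of 20% were transposable element genes, against 2.5% for all models on the array. This share was over 50% for 64 members and under 10% for 158.

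The descriptions name the polyprotein that each member resembles, which gives a rough grouping. Reading frame 1 of a Brassica oleracea element was the match of 68 members, the gag-pol polyprotein of the soybean element SIRE1 of 53 and an Arabidopsis polyprotein (CAA31653) of 49. Endovir1-1, an Arabidopsis Copia element that also carries an envelope-like gene, was the match of 45 members through its gag/pol polyprotein and of 12 through its envelope-like protein. The Arabidopsis elements AtRE2 and AtRE1 were matched by 31 and 20 members, and the maize element Hopscotch by 26. These matches are similarity and not identity, since the foreign elements are only the closest proteins named.

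Most Copia genes were dim on every array. Their median intensity was 179.8 on wild type 1, 163.9 on filed TEKi 1, 165.3 on filed wild type 2 and 158.6 on TEKi 2, while the median of all genes lay between 5648 and 5820. On each array 353 to 369 members were under the lower quartile of all genes. An intensity over 1000 was reached on none of the arrays by 373 members, on some by 76 and on all 4 by 25. The last count is 5.27% of the members, against a background of 62.1% of all models. Intensities of different models rest on different probes and are not transcript amounts, so these counts describe signal and not the order of the elements.

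Few members were bright and steady. AT2G07080, which matches Endovir1-1 gag/pol, had the highest mean intensity, with 62617 on wild type 1, 59165 on filed TEKi 1, 59172 on filed wild type 2 and 63326 on TEKi 2. AT3G62455, a SIRE1-like gene, gave 9679, 7953, 10904 and 6012 in the same order of arrays. AT3G43510, which matches reading frames of tobacco, gave 8717, 6371, 10631 and 8608. None of these 3 genes passed the test with either set of labels. AT2G14220, which matches another Arabidopsis polyprotein, gave 3029, 4217, 7059.6 and 6023 and did not pass either (adjusted p = 0.284 with the value-table labels). AT2G07736 is a nuclear model whose probes also match the mitochondrial gene ATMG00300, so its steady signal of 2695, 1619, 2526 and 1923 cannot be assigned to either copy. Members with nearby locus numbers were also over 1000 on all 4 arrays, namely AT2G07683, AT2G07693, AT2G07694, AT2G07704, AT2G07729, AT2G07735 and AT2G07769. Their signal was not checked for a mitochondrial source.

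Other Copia genes varied more between arrays than most genes did. The range of a gene over the 4 arrays had a median of 1.59 on the log2 scale among the 472 members tested, against 0.77 among all genes tested. Members were also far dimmer than most genes, and ranges were not compared at matched intensity, so the wider range may not be particular to Copia genes. It was over 4, a 16-fold span, for 35 members, or 7.42% against 2.87% of all genes. Of these 35 genes, 29 were higher on wild type 1 and filed TEKi 1 than on the other 2 arrays, and 3 were lower on both.

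With the array-file labels, no Copia gene passed the test between TEKi and wild type. None of the 472 members tested passed an adjusted p of 0.05 in limma, where the background is 0% of all genes in each direction, and no member's adjusted p was below 1. A plain per-gene variance in place of the moderated one also gave no call. The median log2 difference of the members was -0.02, against 0.01 over all genes. At an unadjusted p under 0.05, 24 members were lower in TEKi and 19 higher, which is 5.08% and 4.03% of the members against backgrounds of 2.24% and 2.37%. The arrays of the groups did not overlap and the group means were at least 4-fold apart for 3 members lower and 5 higher in TEKi, or 0.636% and 1.06%, against backgrounds of 0.366% and 0.221%.

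AT1G10260, a short fragment of 722 bases on chromosome 1 that matches Endovir1-1 gag/pol, had the smallest unadjusted p in that comparison. Its intensity was 3518 on wild type 1 and 2359 on filed wild type 2, against 437 on filed TEKi 1 and 317 on TEKi 2. The arrays of the groups did not overlap, and the log2 difference was -2.95 (SE 0.331, n = 2 arrays a group, limma unadjusted p = 0.00204, adjusted p = 1). AT1G21220, an 819-base relative of Brassica reading frame 1 inside a cluster of wall-associated kinase genes, showed the same order at a smaller size. It gave 1268 and 1533 on the arrays filed as wild type and 396 and 446 on those filed as TEKi, a difference of -1.73 (SE 0.205, adjusted p = 1). AT2G11140, another Brassica reading frame 1 relative, gave 812 and 791 against 231 and 340.3. The other 3 of the 6 smallest p on the lower side belonged to dim genes. AT5G29708, which matches polyprotein CAA31653, gave 185 and 252 against 82.3 and 63.3. AT3G29783, a SIRE1 relative, gave 191 and 138 against 66.0 and 63.4. AT1G43715, an AtRE2 relative, gave 58.1 and 61.6 against 29.5 and 32.2. The 6 genes match 5 different proteins. The groups of each stood apart, which picking genes by smallest p favours, so it is no separate evidence. AT1G10260 and AT1G21220 are 2 of the 4 members with an intensity over 1000 on both arrays filed as wild type and on no other, which is 0.844% of the members against a background of 0.402%. No member was over 1000 on both arrays filed as TEKi and on no other, where the background was 0.296%.

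In the other direction the smallest unadjusted p belonged to AT3G43444, which matches polyprotein CAA31653. It was dim throughout, with 41.0 and 47.7 on the arrays filed as wild type and 152 and 188 on those filed as TEKi (difference 1.94, SE 0.219, unadjusted p = 0.00209, adjusted p = 1). AT3G30815, a SIRE1 relative, gave 75.5 and 87.1 against 210.2 and 277. AT3G55300, a fragment of 866 bases that matches an Arabidopsis polyprotein, gave 256 and 238 against 507 and 496, with a spread within groups far smaller than the difference of 1.02 (SE 0.167, adjusted p = 1). AT3G44390, a 282-base fragment that matches a Candida albicans pol protein, was over 1000 on every array, at 3384 and 2782 against 5963 and 5741 (difference 0.93, SE 0.197, adjusted p = 1). AT2G13930 and AT3G30582, both matching other Arabidopsis polyproteins, were dim, with 106 and 101.2 against 231 and 205 for the first and 42.8 and 32.7 against 82.2 and 81.8 for the second. The groups of all 6 genes stood apart, again favoured by the choice of smallest p, and none passed the test.

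**Figure D1:**
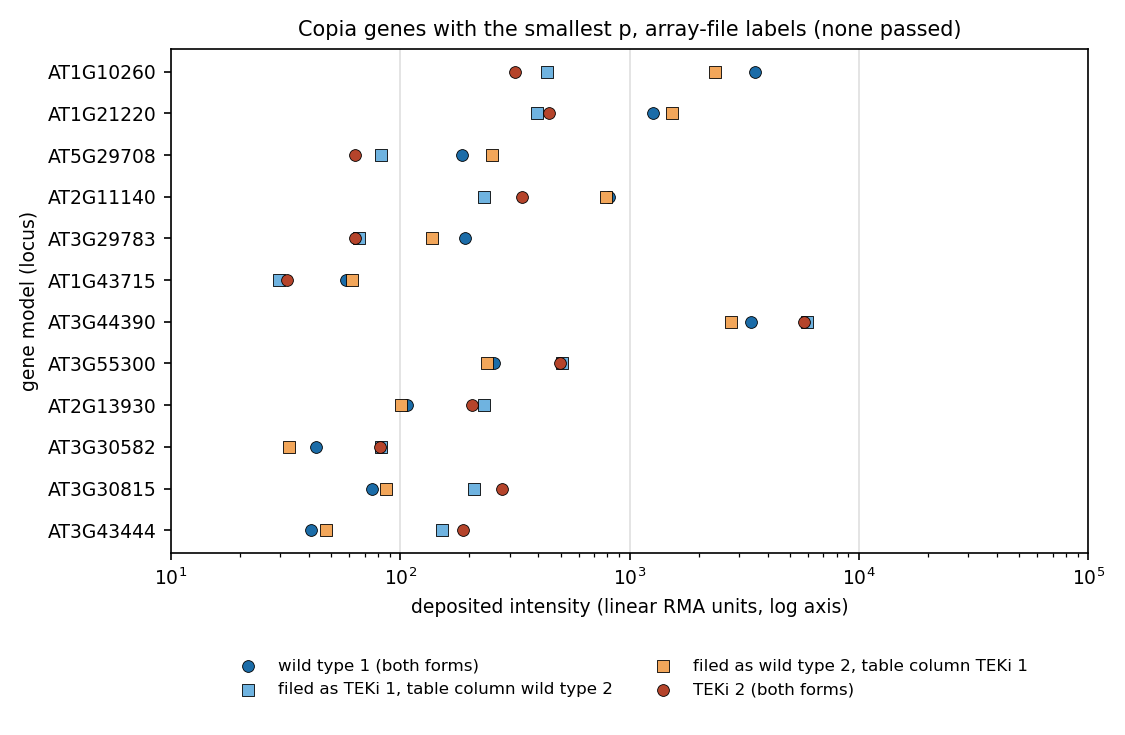
Intensity (log scale) of the Copia genes with the smallest unadjusted p under the array-file labels, with 1 point for each of the 4 arrays. The arrays filed as wild type and as TEKi stand apart for each gene drawn, which picking by smallest p favours. No gene passed an adjusted p of 0.05.

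Summed levels of flower and root markers stood apart between the array-file groups, although not every marker did. Summed intensity of 3 floral organ identity genes (AG, AP3 and PI) was 2996 and 3294 on the arrays filed as wild type against 1064 and 1845 on those filed as TEKi. That of 3 root genes was 26342 and 29823 against 38355 and 40971. PI gave 618 and 569 against 191 and 687, and the root hair gene EXPA7 gave 5916 and 7108 against 9341 and 6759, both with overlap. No gene of these 6 passed the test, no marker was at 0, and their part in the values of the Copia genes was not tested. The ONSEN copies, the Copia genes left out of the set, stood apart under these labels. All 6 were at least 4-fold lower with the groups apart, against a background of 0.366% of all genes. Each is read by 2 probe pairs, and the model AT1G11265 stands for 3 loci. Whether the probes tell the copies apart was not tested, so the 6 may not be separate measurements. None of them passed the test (limma, smallest adjusted p = 0.805). Their median log2 difference was -5.98, and it became 0.01 with the value-table labels.

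With the value-table labels, 19 Copia genes were lower in TEKi and 1 was higher. The falls ran from 3.51-fold to 112-fold with a median of 14.9-fold. On the wild-type arrays these 19 genes lay between 377 and 50277, and on the TEKi arrays between 35.5 and 3172. The 19 genes are 4.03% of the 472 members tested, against a background of 1.95% of all genes (limma, adjusted p of 0.05, n = 2 arrays a group). The 1 rise is 0.212%, against a background of 0.273%. The median log2 difference of all members tested was 0.004, against 0.09 over all genes. The calls rest on the moderated variance: a plain per-gene variance in its place left 0 Copia genes and 0 of all genes. Leaving out any array leaves 1 array in a group, too few to test the calls. The median of the members then ran from -0.092 to 0.057.

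A wider count that uses no p, made on the same arrays, also had more members lower than higher, as it did over all genes. Both TEKi arrays lay below both wild-type arrays, with group means at least 4-fold apart, for 46 members, or 9.75% against a background of 3.94%. The opposite held for 12 members, or 2.54% against 1.17%. At an unadjusted p under 0.05, 65 members were lower and 35 higher, or 13.8% and 7.42% against 6.94% and 7.5% of all genes. An intensity over 1000 on both wild-type arrays of the value table and on no other was seen for 30 members, 6.33% against a background of 2.57%. The same pattern on both of its TEKi arrays was seen for 6 members, 1.27% against 1.14%.

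**Figure D2:**
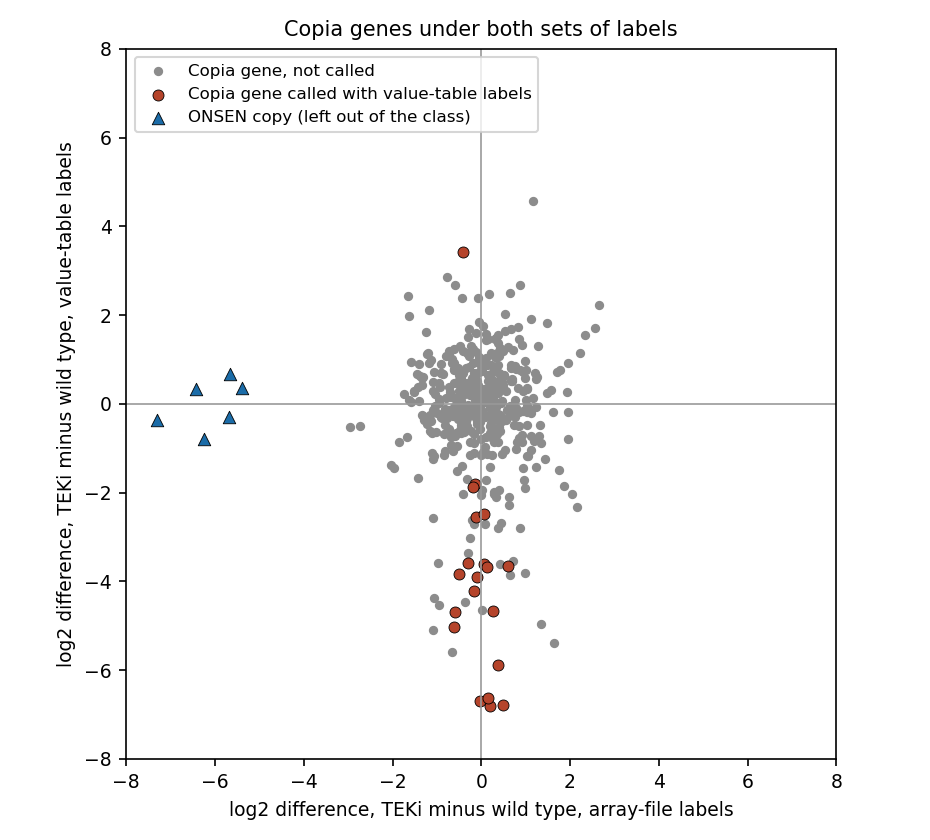
Log2 difference between TEKi and wild type of each tested Copia gene with the array-file labels and with the value-table labels. Triangles are the 6 ONSEN copies, which are not members. The genes that passed the test with the value-table labels are marked, and they run from -6.81 to 3.41 on that axis and lie between -0.61 and 0.61 on the other. The axes share the same 4 arrays, so the plot is a description of relabelling.

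The largest fall among the genes that passed was that of AT1G57640 on chromosome 1, chr1:21350019-21354458. It matches the polyprotein of Hopscotch, and its model also stands for a second locus, AT5G54203. Its intensity was 11742 on wild type 1 and 14547 on filed TEKi 1, which the value table labels wild type, against 113 on filed wild type 2 and 120.3 on TEKi 2, which it labels TEKi. The groups were far apart and each was tight, so that the difference of -6.81 had a small error (SE 0.194, 112-fold, adjusted p = 0.0128). AT5G43800 on chromosome 5, chr5:17614606-17622246, is the longest of the genes that fell, at 7641 bases, and matches Endovir1-1 gag/pol. It gave 46935 and 39819 on the wild-type arrays of the value table and 362 and 527 on the TEKi arrays (difference -6.63, SE 0.270, 99.0-fold, adjusted p = 0.0138). It lies 5952 bases from AGO10, an argonaute of the shoot meristem, which did not pass the test.

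AT3G44215, a Brassica reading frame 1 relative at chr3:15930226-15934677, gave 50277 and 37294 on the wild-type arrays and 238 and 643 on the TEKi arrays, 111-fold apart (difference -6.79, SE 0.584, adjusted p = 0.0366). The TEKi arrays differed from each other by more than the wild-type arrays did. AT5G25045 at chr5:8624717-8629140 resembles retrofit, a Copia element of a wild rice. It gave 3735 and 6358 against 62.9 and 35.5, a 103-fold fall (difference -6.69, SE 0.452, adjusted p = 0.025).

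AT1G58889 at chr1:21800759-21805327 matches AtRE1, and its probes also stand for AT1G59265. Its intensity was 42199 and 44080.0 on the wild-type arrays and 574 and 936 on the TEKi arrays (difference -5.88, SE 0.307, 58.8-fold, adjusted p = 0.0185). AT1G42924, an Endovir1-1 gag/pol relative, gave 3682 and 2843 against 134 and 74.0, a 32.5-fold fall. AT5G44925, which matches another Arabidopsis polyprotein, gave 5161 and 8391 against 277 and 244, a 25.3-fold fall. In all 7 of these genes both TEKi arrays were under 1000, the mark that 373 members reached on no array.

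AT3G43690 completes the 8 largest falls among genes that passed and differs from them in kind, since it matches the envelope-like protein of Endovir1-1 and not a polyprotein. It gave 5253 and 2744 on the wild-type arrays and 160.2 and 134 on the TEKi arrays (difference -4.69, SE 0.397, 25.9-fold, adjusted p = 0.0357). The 11 further genes that fell did so by 3.51-fold to 18.5-fold. Among them, named after their values were seen, AT2G09800 (Hopscotch) gave 7743 and 4614 against 459.8 and 379, and AT3G29776 (Brassica reading frame 1) gave 3517 and 4982 against 357 and 220.5. AT5G35935, another relative of Brassica reading frame 1 and 6504 bases long, gave 2141 and 3105 against 162 and 261. The shortest genes that fell were fragments of pol. AT5G32022, 420 bases long and related to a maize pol protein, gave 991 and 898 against 167 and 155, and AT5G35310, 423 bases long and related to AtRE2, gave 4421 and 3856 against 659.7 and 825.

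Not every fall ended near the dim level. AT1G35405, an AtRE2 relative on chromosome 1, gave 10709.9 and 10083 on the wild-type arrays and 3172 and 2762 on the TEKi arrays, the smallest fall that passed, at 3.51-fold (difference -1.81, SE 0.173, adjusted p = 0.045). At the other end, AT2G07420, also related to AtRE2, was never bright. It gave 426 and 377 against 116 and 103 and passed with a 3.66-fold fall and a small error (difference -1.87, SE 0.179, adjusted p = 0.045). These 2 genes were also picked with their values in view.

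**Figure D3:**
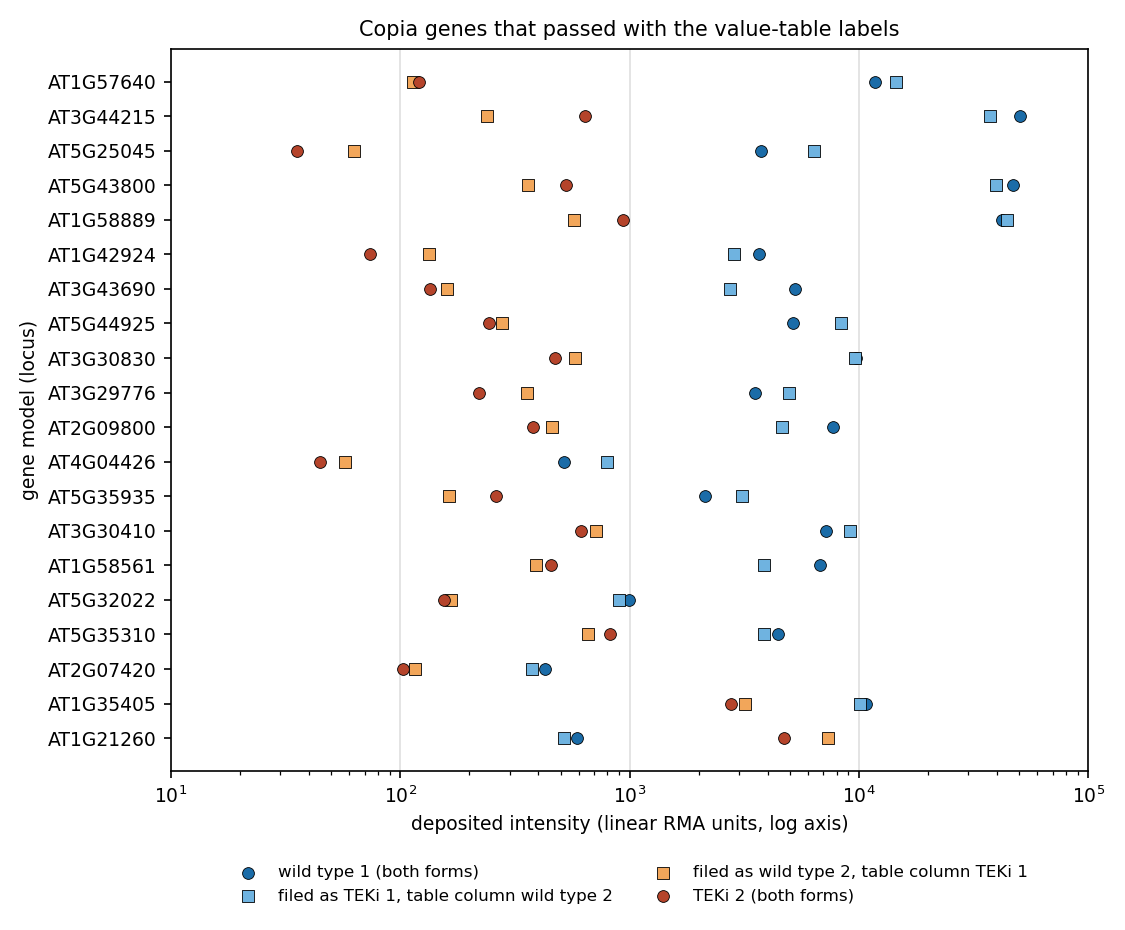
Intensity (log scale) of the 20 Copia genes that passed with the value-table labels, with 1 point for each of the 4 arrays. For 19 genes both wild-type arrays of the value table are the higher ones, and for AT1G21260 both TEKi arrays are.

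AT1G21260 was the 1 member that rose. It is a 761-base relative of Brassica reading frame 1 at chr1:7442207-7442967, between WAK1 and WAK2, which encode wall-associated kinases. It gave 588 and 518 on the wild-type arrays of the value table and 7344 and 4695 on the TEKi arrays (difference 3.41, SE 0.295, 10.6-fold, adjusted p = 0.0372). Next in this direction by unadjusted p was AT3G30839, which matches polyprotein CAA31653. It gave 103.1 and 127 against 419 and 359 and did not pass (adjusted p = 0.0659). AT3G48523, with the same match, gave 96.3 and 118 against 437 and 336 (adjusted p = 0.0747). AT5G36937, a relative of Brassica reading frame 1, gave 215 and 159 against 523 and 605 (adjusted p = 0.0974). The groups of these 3 dim genes did not overlap, which picking by smallest p favours.

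AT1G44510, an AtRE2 relative, had the widest separation on this side. It gave 86.1 and 211 on the wild-type arrays and 2232 and 4563 on the TEKi arrays, a difference of 4.56 (SE 0.643, adjusted p = 0.089). AT3G21020, a SIRE1 relative, gave 776 and 466 against 4459.5 and 3266 (difference 2.67, SE 0.359, adjusted p = 0.082). The groups of both genes, also picked by smallest p, did not overlap, and neither passed the test.

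Some of the widest ranges among the members also missed the threshold. RE2, at chr4:1312547-1316983, gave 7096 and 12452 on the wild-type arrays and 157 and 574 on the TEKi arrays. That is a 31.3-fold separation with no overlap, and it did not pass (difference -4.97, SE 0.784, adjusted p = 0.109). AT1G60020, which matches an Arabidopsis polyprotein, gave 3869 and 5452 against 178 and 51.1 (adjusted p = 0.0756). AT2G05930, an Endovir1-1 gag/pol relative, gave 4117 and 3598 against 27.8 and 306 (adjusted p = 0.223).

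The 19 genes that fell were spread over the genome, with 5, 2, 5, 1 and 6 on chromosomes 1 to 5. These are 5.32%, 2.02%, 4.42%, 1.27% and 6.90% of the members tested there, against a background of 1.95% of all genes. They fell into 10 of the matched-protein groups. Of the members tested that are over 3000 bases long, 13 of 225 (5.78%) fell. Between 1500 and 3000 bases 4 of 86 (4.65%) did, and under 1500 bases 2 of 161 (1.24%). Their surroundings were mixed, with 0 to 60% transposable element genes among the neighbours and a median of 25%. Members in gene-rich stretches, with under 10% such neighbours, gave 6 falls of 158 (3.80%). Those between 10% and 50% gave 11 of 251 (4.38%), and those over 50% gave 2 of 63 (3.17%). Models with 3 probe pairs gave 7 of 75 (9.33%) and those with 2 gave 12 of 397 (3.02%). These splits are counts and were not tested.

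By matched protein, the envelope-like genes of Endovir1-1 had the highest share of falls and the lowest median. Of 12 such genes, 3 fell and 6 were at least 4-fold lower with the groups apart, and their median log2 difference was -2.05. Hopscotch relatives gave 3 falls of 26, AtRE2 relatives 3 of 31 and Brassica reading frame 1 relatives 3 of 68, beside the 1 rise. Endovir1-1 gag/pol relatives gave 2 of 45, and AtRE1 relatives 1 of 20. One fall each was found among 49 matches of polyprotein CAA31653, 44 of other Arabidopsis polyproteins, 12 tested matches of a maize pol protein and 10 of retrofit. None of the 53 SIRE1 relatives and none of the 37 tobacco relatives passed in either direction, and their counts at least 4-fold lower were 2 in each group. The 18 tested relatives of RIRE1, a Copia element of a wild rice, the 17 of Brassica reading frame 2, the 14 of a Candida pol protein, the 12 of Drosophila elements and 4 unassigned members gave no call either. With a background of 1.95% lower over all genes, 0 calls in groups of these sizes say nothing particular about them. No test was made between the groups.

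**Figure D4:**
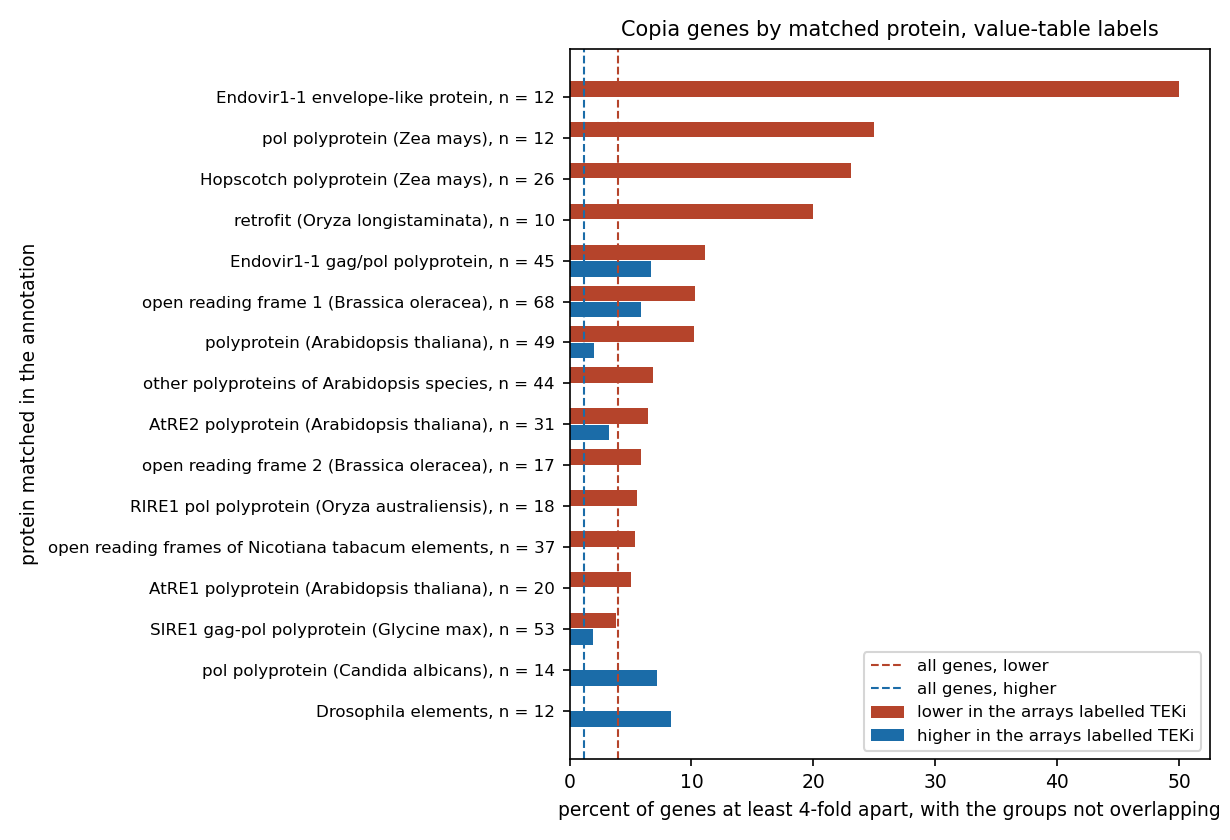
Copia genes by the protein that their description matches. Bars give the percent of genes at least 4-fold lower or higher in TEKi with the groups apart (value-table labels). Dashed lines mark the percent among all genes. Of the 12 envelope-like genes, 6 were lower and 0 higher by this count.

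Endovir1-1 is an element in which the envelope-like gene follows gag/pol, and 10 of the 12 envelope-like members have a gag/pol member within 5 kb. In the 3 pairs whose envelope-like gene fell, the gag/pol neighbour did not pass. Falls were found for 4.44% of the 45 gag/pol members and 1.95% of all genes. The absence of a call in 3 genes therefore says nothing particular about them. AT3G30830 (envelope-like) gave 9739 and 9634 on the wild-type arrays of the value table and 580 and 473 on the TEKi arrays, an 18.5-fold fall (adjusted p = 0.0159). AT3G30831 (gag/pol), 955 bases away, was dim on every array, with 25.5 and 144 on the wild-type arrays and 68.7 and 265 on the TEKi arrays.

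AT3G30410 (envelope-like) gave 7184 and 9159.7 against 716 and 611, a 12.3-fold fall (adjusted p = 0.022). Its gag/pol neighbour AT3G30411, 1068 bases away, gave 192 and 411 against 369 and 38.1, with overlapping groups. AT3G43688, 784 bases from the envelope-like AT3G43690 described above, gave 200.5 and 110.3 against 170.1 and 87.3, again with overlap. The log2 differences of the 3 gag/pol genes were 1.15, -1.24 and -0.29. The difference between the genes of a pair was not tested, these pairs were looked up after the values were seen, and no strand of the probes is stated.

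**Figure D5:**
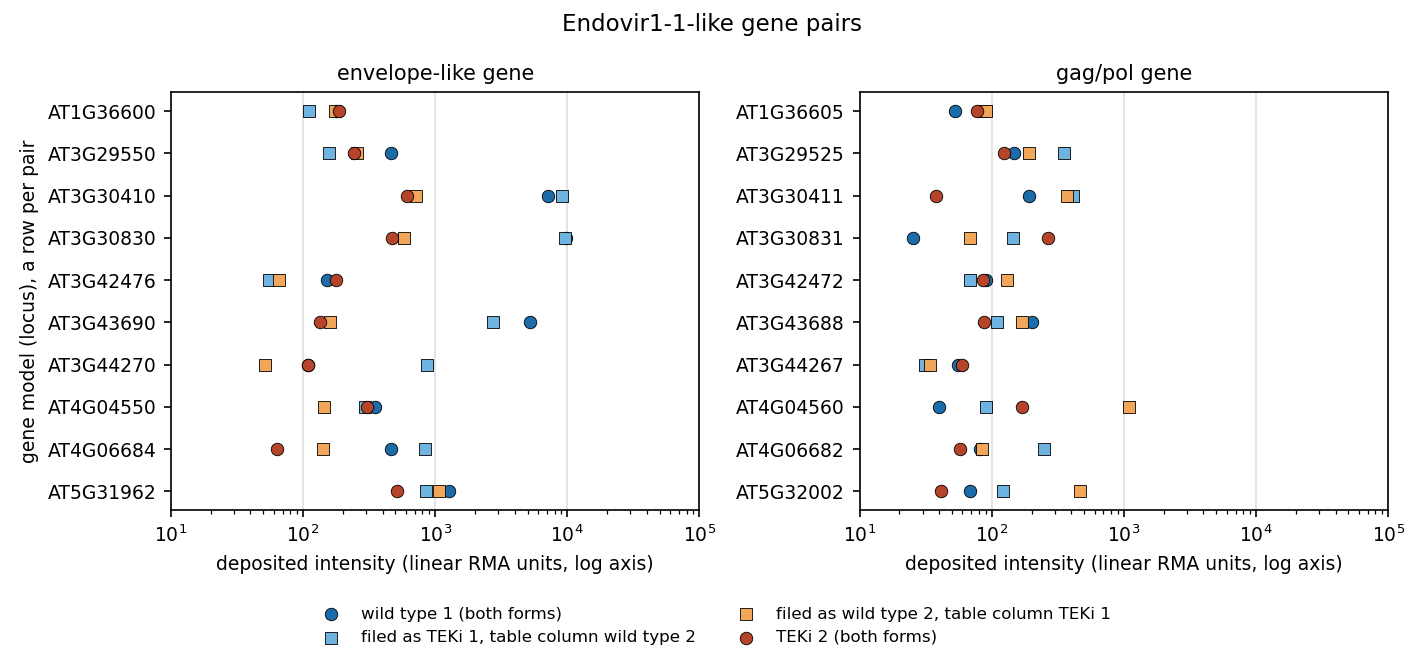
Intensity (log scale) on the 4 arrays of the 10 envelope-like Endovir1-1 genes and of the gag/pol member within 5 kb of each. In 3 pairs (AT3G30410, AT3G30830 and AT3G43690) the envelope-like gene lies between 2744 and 9739 on both wild-type arrays of the value table, while the gag/pol neighbour is at most 411 on all 4.

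Adjacent Copia genes were alike in some places and differed in others. Around the wall-associated kinase genes on chromosome 1 lie 4 members that all match Brassica reading frame 1. AT1G21220 was higher on both arrays filed as wild type, whereas AT1G21260, 13287 bases further on, was higher on filed wild type 2 and on TEKi 2. AT1G21290 gave 865, 518, 2106 and 512 in the order wild type 1, filed TEKi 1, filed wild type 2 and TEKi 2, with only filed wild type 2 standing out. AT1G21300, 454 bases from it, gave 70.7 and 170.1 on the wild-type arrays of the value table against 935 and 355 on its TEKi arrays, the same direction as AT1G21260, and did not pass (difference 2.39, adjusted p = 0.301). On chromosome 3, AT3G21010 and AT3G21030 flank AT3G21020 at 518 and 641 bases and were likewise higher on both TEKi arrays of the value table, at a smaller size. AT3G21010 gave 979 and 1100 on the wild-type arrays of the value table against 3022 and 1720 on its TEKi arrays. AT3G21030 gave 1107 and 1332 against 2779 and 2143, and neither passed.

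The neighbours of the Copia genes that passed were examined with the value-table labels. The 20 genes that passed have 40 nearest models, 1 on each side, of which 11 are transposable element genes. Of the 40, 1 fell and none rose (limma), near the background of 1.95% and 0.273% of all genes, and their median log2 difference was 0.15, against 0.09 over all genes. The 1 that fell, AT4G04430, is a CACTA transposon gene 277 bases from AT4G04426, a relative of polyprotein CAA31653. AT4G04430 gave 52721 and 62792 on the wild-type arrays and 396 and 1111 on the TEKi arrays, and AT4G04426 gave 518 and 801 against 57.5 and 44.5. Some neighbours that did not pass were also far apart between the groups. AT3G30827, a pseudogene 784 bases from AT3G30830, gave 14288 and 21369 against 157 and 494 (difference -5.97, adjusted p = 0.061). AT1G57630, a receptor-like gene 196 bases from AT1G57640, gave 2222 and 1132 against 119 and 202 (difference -3.35, adjusted p = 0.0952). AT5G35940, 933 bases from AT5G35935, went the other way, with 4849.9 and 2663 against 22686 and 30331 (difference 2.87, adjusted p = 0.0846). These 3 were named after their values were seen. AT1G58561, a Hopscotch relative, lies inside the span of another gene, AT1G58602. AT1G58561 gave 6763 and 3874 on the wild-type arrays against 392 and 456, while AT1G58602 gave 1722 and 4531 against 5113 and 5076 and did not pass (difference 0.87, adjusted p = 0.602).

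CACTA and Athila genes gave larger shares of falls than Copia genes with the same labels, and other Gypsy and LINE genes were closer to Copia. CACTA genes fell in 112 of 340 tested and Athila genes in 59 of 538, with median log2 differences of -1.89 and -0.33. Gypsy genes other than Athila fell in 10 of 372 (2.69%) and LINE genes in 11 of 299 (3.68%), with medians of -0.17 and 0.09. Copia genes fell in 4.03%, and the background is 1.95% of all genes. The share at least 4-fold lower with the groups apart was 49.1% for CACTA, 20.6% for Athila, 10.5% for Gypsy and 6.69% for LINE genes. The 9.75% of Copia genes lay between the last 2, and the background is 3.94% of all genes. The classes were not tested against each other.

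Genes of the silencing machinery were looked at as a list of 20, all of them measured, of which 19 act in silencing and ROS1 acts against DNA methylation. With the array-file labels none passed in limma, none had an unadjusted p under 0.05, and their median log2 difference was -0.04. The smallest unadjusted p, 0.203, was that of SGS3, which works with RDR6 in making double-stranded RNA. With the value-table labels ROS1, a DNA glycosylase that removes DNA methylation, was the 1 gene of the list that passed, and it rose. It gave 4387 and 3879 on the wild-type arrays and 26846 and 31391 on the TEKi arrays (difference 2.81, adjusted p = 0.025). NRPE1, which carries the catalytic site of RNA polymerase V, gave 6736 and 6840 against 22325 and 28661 without overlap and did not pass (difference 1.90, adjusted p = 0.055). RDR2, the RNA polymerase that feeds small RNA production, followed at 0.88 (adjusted p = 0.221). Of the 20 genes, 15 had a positive and 5 a negative difference, and the list median was 0.18 against 0.09 over all genes.

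Seed genes also differed with the value-table labels. The summed intensity of CRA1, a cruciferin storage protein, and OLEO1, an oil body protein, was 29803 and 27231 on the wild-type arrays of the value table and 2949 and 8873 on the TEKi arrays. CRA1 passed the test as lower (adjusted p = 0.046) and OLEO1 did not (difference -1.72, adjusted p = 0.408). Neither gene was at 0 on any array. Their part in the falls of the Copia genes was not tested.

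Across the 472 Copia genes, Pearson's r of log2 intensity between arrays was highest within the value-table groups. It was 0.883 between wild type 1 and filed TEKi 1, and 0.784 between filed wild type 2 and TEKi 2. The other 4 pairs lay between 0.611 and 0.643. Over all genes the first 2 values were 0.972 and 0.974, and the others lay between 0.929 and 0.934. These are correlations across genes, which are not independent replicates, and they describe how the arrays resemble each other without settling which label is right.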

How the data were processed

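RNA of 4 seedling samples was hybridised to 4 single-colour NimbleGen arrays. The authors deposited intensity values on a linear scale, made with RMA per the submitters' processing notes, with 2 or 3 probe pairs per member. The sources used here give neither its version nor its settings. The value table repeats the intensities of the 4 array files, with the names of 2 arrays exchanged. Intensities were converted to log2 with no pseudocount. Models with an exact 0 on any array were left out, including the members AT3G30747 and AT3G42433, which left 30352. Groups were compared with limma 3.58.1 in R 4.3.3 (lmFit and eBayes, 2-sided), adjusted by Benjamini-Hochberg over all genes, with a threshold of 0.05. SE is limma's moderated standard error. The procedure was tested on simulated data. The number of arrays limits the precision. Members and lists were chosen with earlier results of these data known. Named members were the 8 largest changes past the threshold in a direction, or the 6 smallest p where under 3 passed, the brightest, the most variable, those with a symbol, and neighbours within 20 kb. Alternatives were other normalizations, filters, variance models, a pseudocount of 50, a replicate block, thresholds, member rules and leaving out each array. No nucleotide sequences were used here.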

Additional observations from a re-analysis of the deposited data

How the results depend on the processing

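The labels decide the result. With the array-file labels 0 Copia genes and 0 of all genes passed, and the other deposited form gave 20 and 674. With the value-table labels 20 and 674 passed, and the other form gave 0 and 0. The value-table counts for Copia and for all genes were 2 and 191 when genes dimmer than the median were dropped, which left 5 members tested, 31 and 1150 when the variance followed a trend with level, 39 and 1272 at an adjusted p of 0.1, and 0 and 0 with plain per-gene variance. The replicate block gave 0 and 0. Leaving out an array left 1 array in a group, too few to test the calls. The replicate numbers share no stated origin, and same-numbered arrays deviated together at r = 0.65 with the array-file labels and 0.11 with the value-table labels. Arrays filed under the same number form a group of the value table, so the first r describes the split that the value-table comparison uses. With 2 pairs and no stated link between them, the numbers were not taken as pairs, whatever these values. Quantile normalization, median centring, the pseudocount, a robust fit and leaving out genes at the ceiling gave 16 to 27 Copia calls. Leaving out the lowest quartile of genes gave 22 calls among 106 members tested. The array-file Copia median (-0.02) was -0.14 without genes below the median level and ran from -0.091 to -0.025 on leaving out each array. The value-table median (0.004) was -0.30 without the lowest quartile (106 members tested), -0.12 without genes below the median level, and ran from -0.092 to 0.057 on leaving out each array. A level filter over all arrays keeps a dim member mainly through arrays on which it is high. The medians and the counts of calls after such a filter therefore do not describe the class. With the other deposited form, the log2 difference turned sign for 8 genes named with the array-file labels, to 0.22 for AT1G21220, 0.10 for AT1G43715, 0.26 for AT2G11140, -0.12 for AT2G13930, -0.20 for AT3G30582, -0.17 for AT3G44390, -0.067 for AT3G55300 and 0.033 for AT5G29708. It turned for 9 named with the value-table labels, to -0.41 for AT1G21260, 0.20 for AT1G57640, 0.38 for AT1G58889, -0.59 for AT3G21020, 0.50 for AT3G44215, -0.041 for AT3G48523, -0.11 for AT5G36937, 0.15 for AT5G43800 and 0.26 for AT5G44925. These reversals follow from putting other arrays in the groups. The cause of the other changes was not tested. Most members lie near the lower end of the intensity scale, where signal over background limits what can be seen.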
